A study of Mus musculus with 24 samples.

Results

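The 8 genes described here, Rbp4, Stra6, Aldh1a1, Aldh1a2, Aldh1a3, Rdh10, Dhrs3 and Rarb, carry retinol, take it up, convert it to retinoic acid or respond to that acid. They were listed by function, with earlier results of these data known, and matched by symbol to their Ensembl identifiers. They are 8 of the 54532 genes counted, and 8 of 8 had enough reads to be among the 17286 genes tested. The study measured RNA by bulk sequencing of 24 mouse kidney samples, 6 in each of 4 groups. The knockout mice lack Lrp2, the gene of the endocytic receptor megalin, in proximal tubule cells, and the controls are their wild-type littermates; kidneys were taken after 2 or 12 weeks on Western diet, and the series title names tubulointerstitial nephritis. Thus every group, controls included, received the diet, and no group on another feed is compared here. The labels write the genotypes as PTC LRP2-SM22 +/+ and PTC LRP2-SM22 -/-; they explain neither SM22 nor the promoter that drives the deletion, and the sources used here give neither the age of the mice nor the make-up of the diet. Whether each library came from its own mouse is not stated in the labels, so the spread behind each p-value may be partly technical.

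Retinol circulates on the carrier protein RBP4, which travels with transthyretin; the part that the glomerulus filters is taken back up in the proximal tubule through megalin. Cells that carry the membrane receptor STRA6 take retinol from RBP4, RDH10 oxidises it to retinaldehyde, DHRS3 reduces retinaldehyde back to retinol, and the enzymes ALDH1A1, ALDH1A2 and ALDH1A3 make retinoic acid in a step that is not reversed. Retinoic acid acts through nuclear receptors such as RARB, whose own gene is a textbook target of the acid.

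The upstream sequences of 3 genes on which the results turn are shown. These sequences were not related to the expression tests. Stra6 and Aldh1a2 rose in the knockout. Rarb, the receptor with a known retinoic acid response element in front of a start inside the gene, did not pass the genotype test. Each is the 250 bases before a RefSeq start site on GRCm38.p6, 5′ to 3′ on the strand of the gene: chr9:58128838-58129087 (plus strand, the first of 4 starts listed for Stra6), chr9:71215539-71215788 (plus, Aldh1a2) and chr14:16575477-16575726 (minus, Rarb). Capitals mark the hexamers of a DR5 element, a direct repeat spaced by 5 bases.
Stra6: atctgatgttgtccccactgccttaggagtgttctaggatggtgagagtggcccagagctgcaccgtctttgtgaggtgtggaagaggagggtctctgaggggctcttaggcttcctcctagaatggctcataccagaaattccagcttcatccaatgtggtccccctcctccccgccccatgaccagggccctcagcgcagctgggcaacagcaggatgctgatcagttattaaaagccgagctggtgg
Aldh1a2: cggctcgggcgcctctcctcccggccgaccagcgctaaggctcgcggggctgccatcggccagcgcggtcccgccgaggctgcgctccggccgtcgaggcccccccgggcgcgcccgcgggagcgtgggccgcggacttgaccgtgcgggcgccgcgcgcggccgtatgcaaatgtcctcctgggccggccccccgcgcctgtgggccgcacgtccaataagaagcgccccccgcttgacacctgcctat
Rarb: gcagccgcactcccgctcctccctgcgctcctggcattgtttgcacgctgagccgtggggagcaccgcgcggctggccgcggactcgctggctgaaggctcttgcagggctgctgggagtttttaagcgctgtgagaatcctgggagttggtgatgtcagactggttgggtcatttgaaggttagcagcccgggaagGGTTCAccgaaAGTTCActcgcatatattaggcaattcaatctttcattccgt

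The element was searched on both strands as a direct repeat of a hexamer with 5 bases between the copies, in windows from 250 bases before to 50 bases after a start. The hexamer AGGTCA was accepted, and so were GGGTCA as a first variant, then AGTTCA as another, and lastly GGTTCA as the most distant. Of 32851 such mouse windows, 32 (0.0974%) held the repeat, and 14358 (43.7%) held a lone hexamer of these kinds at least, so the lone hexamer is common. Repeats spaced by 1 base or 2 bases, which also bind retinoid receptors, were searched in the same way; 0.222% and 0.268% of windows held them, and 0 of the 13 windows of the 8 genes did. RefSeq windows matched 6 of the 8 genes, in 13 windows, and Aldh1a3 and Rdh10 were not matched. The Rarb window held the element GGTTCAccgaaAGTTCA from 53 to 37 bases before the start listed, on the strand of the gene. That start lies inside the annotated gene (chr14:16430839-16819156, minus strand), as the Stra6 start shown lies inside its own. The counts of these genes can therefore include transcripts from other starts. The base composition of the sequences shown differs widely, with 77.6% G or C in Aldh1a2, 58% in Rarb and 56.4% in Stra6. Among the other retinoid genes described below, Cyp26a1, which encodes a retinoic acid-degrading enzyme, held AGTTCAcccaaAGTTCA on the opposite strand, from 32 to 16 bases before its start.

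Library totals, in megacounts (M), ran from 15.6 to 34.1 M at 2 weeks and from 11.3 to 15.2 M at 12 weeks. The 2 durations are also 2 series of libraries: the deposited files name them in different ways, and the predicted gene Gm42418 had 0 counts in every 2-week library against 71635 to 424892 at 12 weeks. Duration and the making or counting of the libraries cannot be told apart, and this touches each comparison of 12 with 2 weeks below. Levels are in CPM, counts per megacount of the library after scaling by the TMM method, and each log2 fold change comes with its standard error (SE). Lrp2 checked the labels: it ranged from 1410 to 2503 CPM in the wild-type libraries of both durations and from 186 to 584 CPM in the knockout libraries, with no overlap. Its log2 fold change was -2.49 (SE 0.23, edgeR adjusted p = 2.4e-06) at 2 weeks and -2.51 (SE 0.18, adjusted p = 3.9e-07) at 12 weeks. The kidney origin of the RNA was checked with 10 proximal tubule markers, whose summed level was 8935 to 24027 CPM, and none of which was at 0 in any group.

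At 2 weeks 3 of the 8 genes passed the genotype test (edgeR quasi-likelihood test, Benjamini-Hochberg adjusted p under 0.05 over the genes tested), where 31.6% of tested genes did. Stra6 and Aldh1a2 rose and Dhrs3 fell, beside 18.2% of tested genes higher and 13.4% lower. At 12 weeks 4 of the 8 passed, against 38.5% of tested genes, and these 4 were Stra6, Aldh1a2, Rbp4 and Aldh1a3, all higher in the knockout, a direction in which 20.7% of tested genes passed; 0 of the 8 were lower, against 17.7%. The share called was near the background at 2 weeks (3 of 8) and at 12 weeks (4 of 8). Of the 12-week calls, those of Rbp4 and Aldh1a3 were lost when 9 libraries were left out, as given below (edgeR adjusted p = 0.37 and 0.27). The 8 genes were chosen with earlier results of these data known, so their place among all tested genes is a description and no test. Stra6 and Aldh1a2 had log2 fold changes over 3 at both durations. Upward changes of that size were found in 0.729% of tested genes at 2 weeks and 1.34% at 12 weeks. The median log2 fold change of the 8 genes was 0.05 at 2 weeks and 0.78 at 12 weeks, beside -0.01 and 0.00 over the tested genes. For the same 2 genes the groups did not overlap at either duration, where 16.6% of tested genes at 2 weeks and 18.4% at 12 weeks had groups without overlap. DESeq2 called 3 of the 8 genes at 2 weeks and 5 at 12 weeks.

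**Figure D1:**
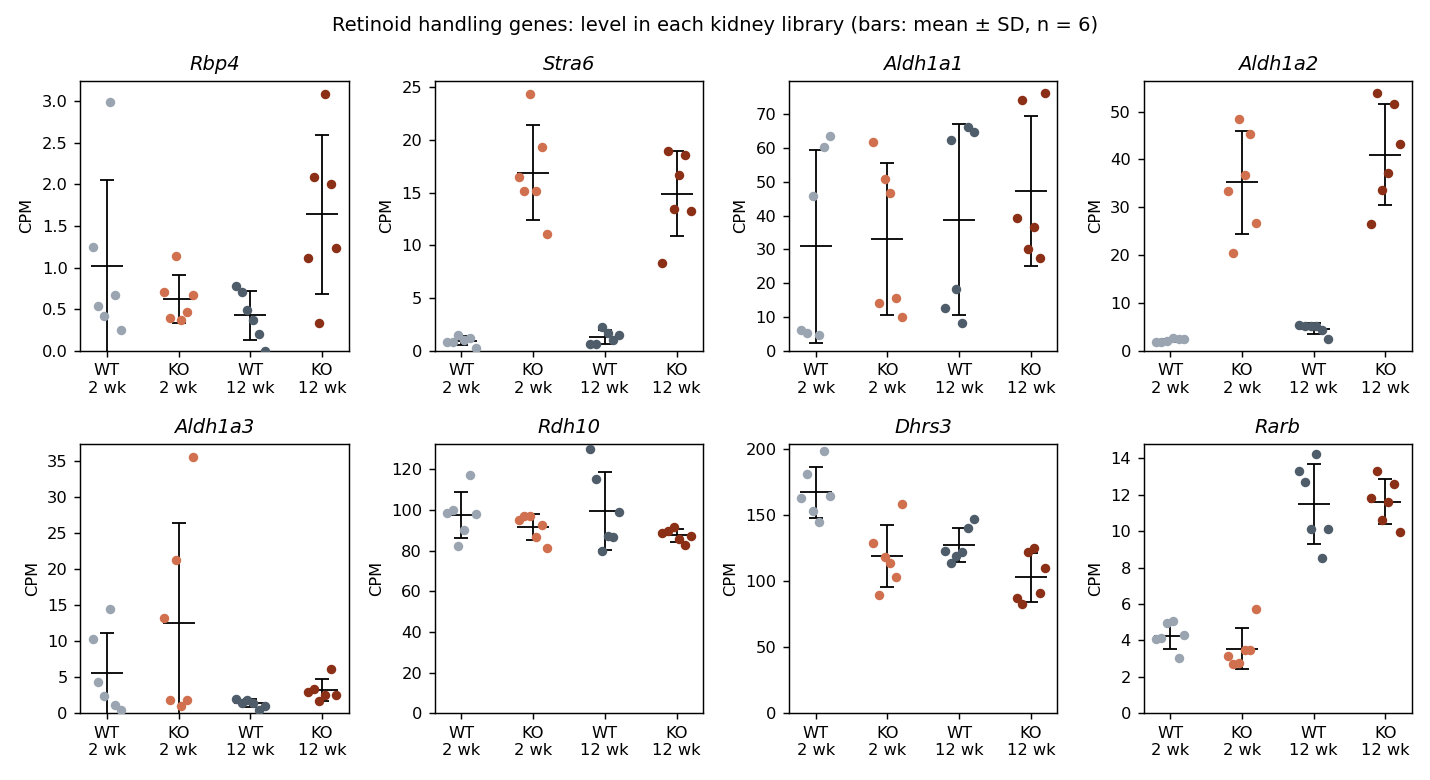
Level of each of the 8 genes in CPM (linear axes from 0) in each of the 24 kidney libraries, by genotype (WT, wild type; KO, Lrp2 knockout) and weeks of diet; points are libraries and bars are mean ± SD of 6. All knockout points of Stra6 and Aldh1a2 lie above all wild-type points of the same duration, Rarb stands higher at 12 weeks in both genotypes, and Aldh1a1 spreads over low and high libraries inside each group.

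Per kilobase of exon, the scale on which genes can be compared, Dhrs3 and Rdh10 stood highest in each of the 4 groups. Dhrs3 had a mean of 57.1 CPM per kilobase in wild type at 2 weeks and 35.1 in the knockout at 12 weeks, and Rdh10 lay between 21.1 and 23.9 in the 4 groups. Aldh1a2 stood at 0.958 and 2.03 CPM per kilobase in wild type at 2 and 12 weeks, below Aldh1a1 at 6.28 and 7.85. In the knockout Aldh1a2 stood above Aldh1a1, at 15.5 against 6.72 CPM per kilobase at 2 weeks and 18.1 against 9.59 at 12 weeks. The order of these enzymes was thus turned in the group means; no test was made between genes. Stra6 was the lowest of the 8 in wild type, at 0.16 and 0.222 CPM per kilobase, and reached 2.9 and 2.55 in the knockout.

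**Figure D2:**
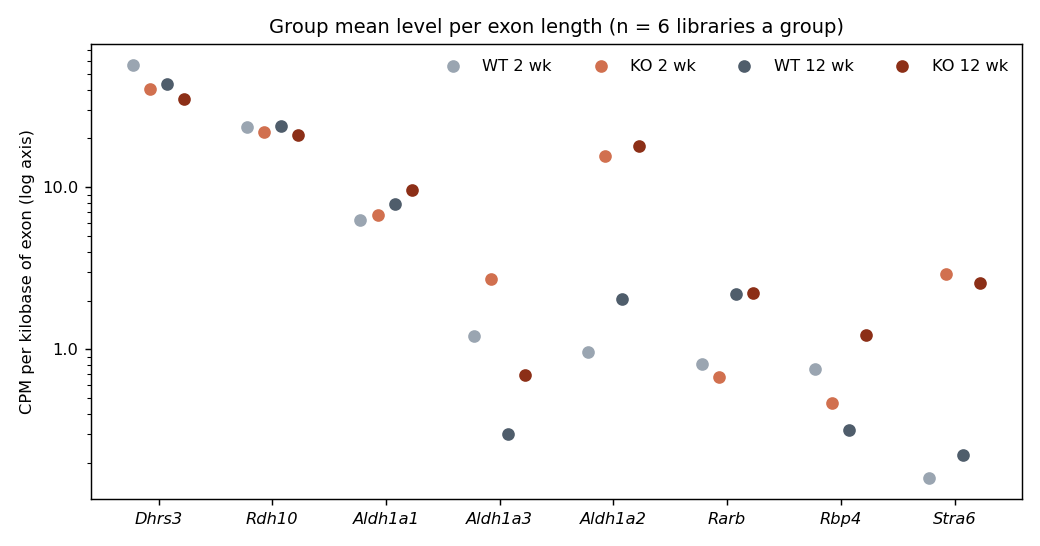
Group mean of each of the 8 genes in CPM per kilobase of exon (log axis), 6 libraries a group, ordered by the level in wild type at 2 weeks. Aldh1a2 lies below Aldh1a1 in wild type and above it in the knockout at both durations, and Stra6 is the lowest in wild type.

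Stra6 (ENSMUSG00000032327, mm10 chr9:58063788-58153996, plus strand) encodes the membrane receptor for RBP4 through which cells take up retinol. In wild type it had 0.248 to 1.51 CPM at 2 weeks (median 0.921) and 0.62 to 2.27 at 12 weeks (median 1.26), from 4 to 31 counts per library. In the knockout it had 11.1 to 24.4 CPM at 2 weeks (median 15.8) and 8.36 to 19 at 12 weeks (median 15.1). The lowest knockout library thus lay above the highest wild-type library at each duration. The mean was 18.2-fold higher at 2 weeks (16.9 ± 4.5 against 0.931 ± 0.426 CPM, SD, n = 6) and 11.5-fold higher at 12 weeks (14.9 ± 4.02 against 1.3 ± 0.639). The log2 fold change was 4.21 (SE 0.26, edgeR adjusted p = 1.3e-08) and 3.54 (SE 0.29, adjusted p = 1.1e-06). Stra6 lies across Ccdc33 on the opposite strand in the annotation, with no exonic base shared.

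Aldh1a2 (ENSMUSG00000013584, mm10 chr9:71215789-71296243, plus strand) encodes the retinaldehyde dehydrogenase best known for making retinoic acid in embryonic mesenchyme and the mesothelium. Wild-type libraries had 1.75 to 2.63 CPM at 2 weeks (median 2.19) and 2.35 to 5.37 at 12 weeks (median 5.18). Knockout libraries had 20.4 to 48.4 CPM at 2 weeks (median 35) and 26.6 to 53.8 at 12 weeks (median 40.3). As for Stra6, no wild-type library reached the lowest knockout library. The means differed 16.2-fold at 2 weeks (35.2 ± 10.7 against 2.17 ± 0.351 CPM, SD, n = 6) and 8.93-fold at 12 weeks (41 ± 10.5 against 4.59 ± 1.17). The log2 fold change was 4.07 (SE 0.22, edgeR adjusted p = 7.1e-09) at 2 weeks and 3.19 (SE 0.21, adjusted p = 4.8e-07) at 12 weeks. Wild-type kidneys were higher at 12 than at 2 weeks, with a log2 fold change of 1.09 (SE 0.25, adjusted p = 0.0019), whereas the knockout gave 0.22 (SE 0.19, adjusted p = 0.38).

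Markers of other cell types moved with Stra6 and Aldh1a2. All 10 injured tubule markers, among them Havcr1 and Lcn2, were higher in the knockout at both durations; their summed level was 591 to 748 CPM in wild type and 5226 to 11004 in the knockout at 2 weeks, and 491 to 640 against 2678 to 5560 at 12 weeks. Of 10 fibroblast and stroma markers 9 were higher at 2 weeks and 10 at 12 weeks, with sums of 131 to 190 against 516 to 1417 CPM and 121 to 424 against 571 to 1505 CPM. Of 10 macrophage and dendritic cell markers 10 were higher at both durations, with sums of 310 to 407 against 1009 to 2218 CPM and 284 to 654 against 1243 to 2596 CPM. Of 8 T cell markers 7 were higher at each duration, with sums of 5.7 to 8.51 against 12.9 to 26.1 CPM and 5.18 to 12.5 against 22.7 to 112 CPM. Proximal tubule markers fell, 9 of 10 at each duration, as did 5 of 8 markers of the distal nephron and collecting duct. Of 6 podocyte markers 1 was lower at 2 weeks and 4 were higher at 12 weeks. The mitochondrial share of counts was also lower in the knockout, 6.87% ± 1.64 against 8.89% ± 0.645 (SD, n = 6) at 2 weeks and 10.4% ± 1.07 against 13.7% ± 0.856 at 12 weeks. Of the mesothelium markers 3 were tested, and 1, Gpm6a, was lower and 0 were higher at each duration. Gpm6a fell from a mean of 124 to 87.8 CPM at 2 weeks and from 137 to 77.7 at 12 weeks and makes up most of the summed level of this list (113 to 137 against 71.6 to 114 CPM, and 127 to 155 against 59.3 to 100 CPM). The scarcer Msln and Upk3b did not pass and had positive log2 fold changes, 1.04 (SE 0.51) and 0.32 (SE 0.35) at 2 weeks and 1.43 (SE 0.58) and 0.91 (SE 0.58) at 12 weeks, so the median of the list was 0.32 and 0.91. The part of these cells, and of the mitochondrial share, in the levels of Stra6 and Aldh1a2 was not tested, and in whole-kidney RNA a change in the number of cells of a type and a change in RNA per cell cannot be told apart.

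**Figure D3:**
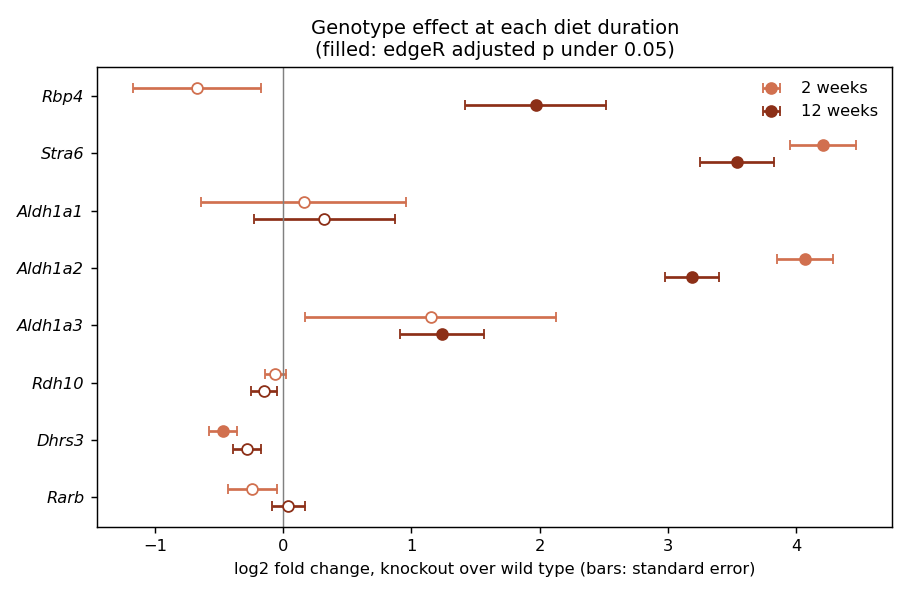
log2 fold change, knockout over wild type, of the 8 genes at 2 and 12 weeks, with standard errors; filled points passed edgeR's test at an adjusted p under 0.05. Stra6 and Aldh1a2 lie beyond 3 at both durations, while Rdh10 and Rarb lie near 0.

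Rbp4 (ENSMUSG00000024990, mm10 chr19:38116629-38125281, minus strand), the gene of the plasma retinol carrier made mainly by liver and fat, was scarcely transcribed in these kidneys, with 0 to 58 counts per library. It had 0.248 to 2.99 CPM in wild type (median 0.603) and 0.371 to 1.14 in the knockout (median 0.569) at 2 weeks, and the groups overlapped. At 12 weeks it had 0 to 0.781 CPM in wild type (median 0.433), where the library with 0 counts allows up to 0.251 CPM (3 counts) by counting error alone, and 0.328 to 3.09 in the knockout (median 1.62). Replicate 3 of the knockout lay within the wild-type range and the other 5 above it. The log2 fold change was -0.67 (SE 0.50, edgeR adjusted p = 0.34) at 2 weeks and 1.97 (SE 0.55, adjusted p = 0.011) at 12 weeks. The difference between these, 2.65 (SE 0.80), had an unadjusted p of 0.0027 and an adjusted p of 0.18 in edgeR, so it did not pass.

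The highest Rbp4 libraries were also those with RNA of fat cells. Adipoq, the hormone gene of adipocytes, named outside the rule and chosen after its values were seen, had 6.19 CPM in replicate 4 of wild type at 2 weeks, the library with 2.99 CPM of Rbp4. In the knockout at 12 weeks replicates 1, 2, 4 and 5 had 8.78, 2.82, 18.5 and 5.19 CPM of Adipoq with 1.12, 2.09, 3.09 and 2 CPM of Rbp4, and replicates 3 and 6 had 0 Adipoq counts with 0.328 and 1.23 CPM of Rbp4. Of 7 adipocyte markers tested, 5 were higher in the knockout at 12 weeks and 0 at 2 weeks; the 8 markers summed to 34 to 85.3 CPM in wild type and 48 to 422 in the knockout at 12 weeks. Without the 9 libraries over 1 CPM of Adipoq, a choice made after seeing the data that leaves 2 knockout libraries at 12 weeks, the log2 fold change of Rbp4 was 1.18 (SE 0.78, edgeR adjusted p = 0.37) at 12 weeks and 0.54 at 2 weeks. Of 6 hepatocyte markers tested, 1 was higher and 1 lower at 12 weeks; together these markers summed to 35.6 to 81.4 CPM in wild type and 38.7 to 124 in the knockout at 12 weeks. Stra6 and Aldh1a2 kept their calls without the 9 libraries, at 3.27 (SE 0.30) and 3.15 (SE 0.22) at 12 weeks.

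Aldh1a1 (ENSMUSG00000053279, mm10 chr19:20492715-20643465, plus strand), a retinaldehyde dehydrogenase of many adult tissues, varied more within groups than between them. In wild type at 2 weeks replicates 1, 2 and 4 had 6.28, 5.36 and 4.65 CPM, and replicates 3, 5 and 6 had 45.9, 60.2 and 63.6. In the knockout at 2 weeks replicates 2, 5 and 6 had 14, 15.5 and 10 CPM, and replicates 1, 3 and 4 had 61.9, 50.9 and 46.7. Each of these groups thus held low and high libraries with a wide gap between. In wild type at 12 weeks replicates 1, 3 and 4 had 12.8, 18.2 and 8.3 CPM against 62.3, 66.3 and 64.7 in replicates 2, 5 and 6. In the knockout at 12 weeks replicates 2 and 6 had 74.4 and 76.2 CPM and the other 4 libraries 27.5 to 39.2. The 12-week knockout therefore had no library as low as the low ones of the other groups, and no genotype test passed: the log2 fold change was 0.16 (SE 0.80, edgeR adjusted p = 0.91) at 2 weeks and 0.32 (SE 0.55, adjusted p = 0.69) at 12 weeks. The SE leaves room for changes of either sign, and leaving out single libraries moved the 2-week value between -0.11 and 0.51.

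The low and high libraries of Aldh1a1 were shared by a few of the genes near it on chromosome 19. Aldh1a7, a close relative separated from Aldh1a1 by 0.0495 megabases, was the gene most alike to it across libraries. Ostf1, which encodes osteoclast stimulating factor and lies 1.86 megabases away, was the next, and the third was Babam2 on chromosome 5. In wild type at 2 weeks Aldh1a7 had 16.4, 9.75 and 10.4 CPM in replicates 1, 2 and 4 and 55, 89.6 and 84.4 in replicates 3, 5 and 6. Ostf1 had 81.2, 75.6 and 76.1 CPM in the former and 99.2, 126 and 129 in the latter. Both genes were thus low in the same 3 libraries as Aldh1a1. In the knockout at 2 weeks Ostf1 had 78.4, 79 and 76.8 CPM in replicates 2, 5 and 6 and 123, 134 and 125 in replicates 1, 3 and 4, again along with Aldh1a1. Of 15 tested genes within 3 megabases, 3 (Aldh1a7, Ostf1 and Nmrk1, the last named outside the rule) had r over 0.5 with Aldh1a1. That is 20% of them, beside 185 (1.27%) of the 14593 genes ranked. Most neighbours did not follow, and the median of the 15 was -0.15, beside 0.01 over the genes ranked. Anxa1, 0.102 megabases away, ranked 14092 of 14593 in likeness. Reads of Aldh1a1 and Aldh1a7 may be shared, since the genes are near copies and the sources used here do not say how reads that fit both were handled, so their levels are uncertain; that does not bear on Ostf1, which is unrelated in sequence. No genotype test passed for Aldh1a7 (log2 fold change 0.25, SE 0.62, edgeR adjusted p = 0.81 at 2 weeks).

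**Figure D4:**
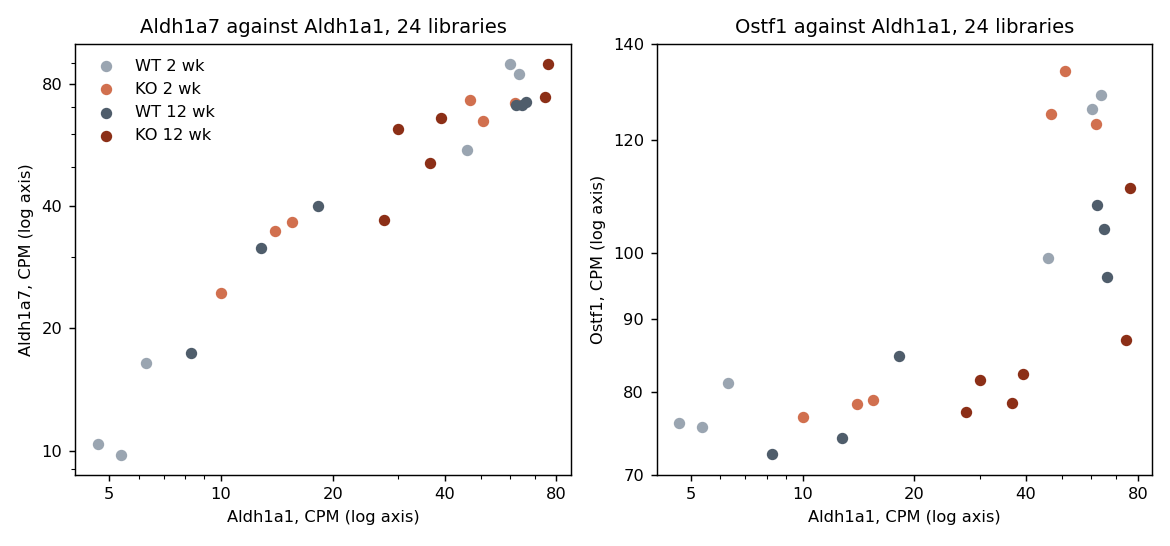
Aldh1a7 (left) and Ostf1 (right) against Aldh1a1 in the 24 libraries, in CPM on log axes, coloured by genotype and weeks of diet. Libraries low in Aldh1a1 are low in Aldh1a7, and Ostf1 stays between 72.4 and 84.8 CPM up to 39.2 CPM of Aldh1a1 and reaches 134 CPM above it.

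Aldh1a3 (ENSMUSG00000015134, mm10 chr7:66390890-66427517, minus strand), the third enzyme of this kind, spread most at 2 weeks. Wild-type libraries had 0.497 to 14.4 CPM (median 3.42) and knockout libraries 1.02 to 35.5 (median 7.54), and 2 knockout libraries, at 21.3 and 35.5 CPM, lay above every wild-type library while the other 4 lay within the wild-type range. At 12 weeks the levels were lower and closer, 0.508 to 1.95 CPM in wild type (median 1.5) and 1.72 to 6.13 in the knockout (median 2.75), with the lowest knockout library inside the wild-type range. The log2 fold change was 1.15 (SE 0.98, edgeR adjusted p = 0.42) at 2 weeks and 1.24 (SE 0.33, adjusted p = 0.0082) at 12 weeks, nearly the same size with different errors. The 12-week call was lost with the spread estimated over 24 libraries (log2 fold change 1.22, adjusted p = 0.31) and without the 9 libraries over 1 CPM of Adipoq (0.77, adjusted p = 0.27).

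The libraries highest in Aldh1a3 at 2 weeks were replicates 1 and 4 of wild type, with 10.3 and 14.4 CPM, and replicates 1, 3 and 6 of the knockout, with 13.2, 21.3 and 35.5. Akr1b3, which encodes aldose reductase and is abundant in the inner medulla, was named outside the rule after its values were seen; it had 116 and 124 CPM in these wild-type libraries and 74.3, 144 and 134 in these knockout libraries, within ranges of 63.7 to 124 and 44.4 to 144. Replicate 2 of wild type went against this, with 119 CPM of Akr1b3 and 4.39 CPM of Aldh1a3. So did replicate 1 of the knockout, whose 74.3 CPM of Akr1b3 lay near the group median of 69.2. Both Akr1b3 and Aldh1a3 also had narrower ranges at 12 weeks, 54 to 69.2 CPM in wild type and 37.2 to 78.5 in the knockout for Akr1b3. The part of the sampled region of the kidney in the level of Aldh1a3 was not tested.

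Rdh10 (ENSMUSG00000025921, mm10 chr1:16105774-16133734, plus strand), which makes retinaldehyde, had nearly the same level in the 4 groups. It had 82.2 to 117 CPM in wild type (median 98) and 81.1 to 97.1 in the knockout (median 93.9) at 2 weeks, and 79.6 to 130 (median 93.1) and 82.8 to 91.6 (median 87.9) at 12 weeks. The log2 fold change was -0.06 (SE 0.08, edgeR adjusted p = 0.62) at 2 weeks and -0.15 (SE 0.10, adjusted p = 0.25) at 12 weeks.

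Dhrs3 (ENSMUSG00000066026, mm10 chr4:144892827-144928209, plus strand), which works against Rdh10 by reducing retinaldehyde and is itself raised by retinoic acid in many cells, fell in the knockout at 2 weeks. It had 145 to 198 CPM in wild type (median 163) and 89.6 to 158 in the knockout (median 116). The ranges overlapped through the highest knockout library. The log2 fold change was -0.47 (SE 0.11, edgeR adjusted p = 0.0039), or a mean of 119 ± 23.4 against 167 ± 19.4 CPM (SD, n = 6). At 12 weeks it had 114 to 147 CPM in wild type (median 123) and 82.3 to 125 in the knockout (median 100), with a log2 fold change of -0.28 (SE 0.11, adjusted p = 0.053) that missed the threshold. DESeq2 gave an adjusted p of 0.039 for it, edgeR gave 0.048 with RLE scaling and 0.036 in the fit on 24 libraries, and the fit with a replicate block gave 0.042; leaving out knockout replicate 3 or 4 or wild-type replicate 2 gave 0.025, 0.022 and 0.047 in edgeR. Wild-type kidneys were lower at 12 than at 2 weeks, by -0.39 (SE 0.12, edgeR adjusted p = 0.012).

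Rarb (ENSMUSG00000017491, mm10 chr14:16430839-16819156, minus strand), the nuclear receptor whose upstream sequence with the DR5 element is shown above, did not pass the genotype test at either duration. It had 3.02 to 5.06 CPM in wild type (median 4.21) and 2.72 to 5.72 in the knockout (median 3.31) at 2 weeks. At 12 weeks it had 8.53 to 14.2 CPM in wild type (median 11.4) and 9.93 to 13.3 in the knockout (median 11.7). Within a duration the genotypes overlapped, and between durations no library overlapped. The genotype log2 fold change was -0.24 (SE 0.19, edgeR adjusted p = 0.36) at 2 weeks and 0.04 (SE 0.13, adjusted p = 0.82) at 12 weeks. From 2 to 12 weeks Rarb rose by a log2 fold change of 1.43 (SE 0.16, adjusted p = 7.8e-08) in wild type and 1.72 (SE 0.16, adjusted p = 3e-09) in the knockout. Of its exonic length, 2020 bases (38.4%) overlap the opposite-strand genes Top2b, which encodes a DNA topoisomerase, and Gm48162; the sources used here do not say whether counting used the strand, so the level of Rarb is uncertain. Top2b itself had 76.6 to 105 CPM over the 24 libraries and a log2 fold change from 2 to 12 weeks of 0.08 (SE 0.07, adjusted p = 0.42) in wild type and 0.05 (SE 0.07, adjusted p = 0.62) in the knockout.

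The order of the 4 groups was tested between neighbours in each gene with an exact permutation test of the means, two-sided, with p adjusted over 24 such tests and a smallest unadjusted p of 0.0022. Stra6 ran from wild type at 2 weeks through wild type at 12 weeks and the knockout at 12 weeks to the knockout at 2 weeks, and of these steps that from wild type to knockout passed (adjusted p = 0.017), while the others did not (0.55 and 0.59). Aldh1a2 ran from wild type at 2 weeks to wild type at 12 weeks (adjusted p = 0.035), the knockout at 2 weeks (0.017) and the knockout at 12 weeks (0.55). In Rarb the step between the durations passed (adjusted p = 0.017), and the steps between genotypes below and above it did not (0.55 and 0.89). Aldh1a3 was lowest in wild type at 12 weeks and next in the knockout at 12 weeks, a step that passed (adjusted p = 0.031), and the 2 steps above it, to wild type and then the knockout at 2 weeks, did not pass (0.58 and 0.55). Dhrs3 was highest in wild type at 2 weeks, above wild type at 12 weeks (adjusted p = 0.026), and the 2 steps below did not pass (0.55 and 0.59); the knockout against wild type at 12 weeks is no step of this order. No step passed in Rbp4 (adjusted p of 0.55 to 0.65), Aldh1a1 (0.68 to 0.88) or Rdh10 (0.55 to 0.88), which for Rbp4 includes no direct test of wild type against knockout at 12 weeks, since these groups lie at the ends of its order.

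For the 12 against 2 week comparison, 3 of the 8 genes passed in wild type (Aldh1a2 and Rarb higher, Dhrs3 lower), where 30.4% of tested genes did (15.8% higher, 14.7% lower). In the knockout 2 passed (Rbp4 and Rarb higher, 0 lower), where 33.8% did (17.7% higher, 16.1% lower). Rarb alone of the 8 had durations without overlap, in each genotype, as did 16% of tested genes in wild type and 14.3% in the knockout. The call of Rbp4 in the knockout, at a log2 fold change of 1.37 (SE 0.52, edgeR adjusted p = 0.044), rested on a narrow margin. It was lost without low-count filtering (adjusted p = 0.084), with a replicate block (0.077), without the libraries over 1 CPM of Adipoq (0.24, adjusted p = 0.87) and when any of knockout replicates 2, 4 and 5 at 12 weeks or 1, 2, 4, 5 and 6 at 2 weeks was left out (adjusted p of 0.064 to 0.13). Aldh1a3 had -2.02 (SE 0.88, adjusted p = 0.091) in wild type and -1.94 (SE 0.78, adjusted p = 0.061) in the knockout, which DESeq2 called with 0.028 and 0.029; without knockout replicate 2, 4 or 5 at 2 weeks edgeR gave 0.031 to 0.036. The difference between the genotype effects of the 2 durations passed for 0 of the 8 genes in edgeR, against 0.174% of tested genes. DESeq2 also called 0. At an unadjusted p under 0.05 it held for 2 of them, Rbp4 and Aldh1a2 (-0.87, SE 0.32, unadjusted p = 0.011, adjusted p = 0.29), beside 10.6% of tested genes. For Stra6 it was -0.66 (SE 0.42, adjusted p = 0.6), so the smaller fold at 12 weeks was not shown to differ from that at 2 weeks.

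The genes most like each of the 8 were taken by Pearson's r of log2 CPM over the 24 libraries after the mean of each group was subtracted; r is a description, ranked among 14593 tested genes without predicted names, and all genes share the same libraries and depth. Stra6 was most like Il11, the gene of a cytokine of the interleukin-6 family (r = 0.75), Iqgap3 (0.73) and Tmeff1 (0.72). Spearman's rank correlation for these was 0.67, 0.53 and 0.78, and wild-type Stra6 had 4 to 31 counts per library. As the highest of 14593 genes, these values and those of Rarb below may owe part of their size to the ranking, which was not tested. Il11 itself rose in the knockout, from 0.243 to 1.36 CPM at 2 weeks and from 0.334 to 1.02 at 12 weeks. Aldh1a2 was most like Cald1, a gene of smooth muscle and stromal cells (0.92), the collagen gene Col6a2 (0.91) and the receptor kinase gene Axl (0.91), and Col6a2 went from 6.51 CPM in wild type to 18.4 in the knockout at 2 weeks and from 11.3 to 28.9 at 12 weeks. So the libraries with more Aldh1a2 within a group were also those with more of these stromal transcripts. Rbp4 was most like Ntrk2 (0.88) and Gsn (0.87), and Aldh1a3 like Fcgbp (0.82), Wnt4 (0.81) and Tnfrsf19 (0.81). Wnt4, a secreted signal known for its part in nephron formation, rose in the knockout at both durations (log2 fold change 1.86, SE 0.40, edgeR adjusted p = 0.0028 and 2.71, SE 0.33, adjusted p = 3.5e-05). Rdh10 was most like Npas2, a circadian clock gene (0.84), Tfpi2 (0.82) and Clpx (0.78), Dhrs3 like Sufu (0.85), Rab11fip4 (0.83) and Rassf3 (0.80), and Rarb like Tppp (0.71), Kcna6 (0.71) and Lamb3 (0.70).

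The other genes of the pathway were read from lists by function, and their counts stand beside the same shares of all tested genes: 18.2% higher and 13.4% lower at 2 weeks (31.6% in all), and 20.7% higher and 17.7% lower at 12 weeks (38.5% in all). Among the carriers of retinol and their relatives, Stra6l, which resembles Stra6, rose at 2 weeks (log2 fold change 0.80, SE 0.10, edgeR adjusted p = 7.8e-06), and at 12 weeks had 0.36 (SE 0.19, adjusted p = 0.15). Ttr, which encodes transthyretin, the partner of RBP4 in plasma, fell at 2 weeks (-0.73, SE 0.21, adjusted p = 0.02) and had -0.67 (SE 0.38, adjusted p = 0.19) at 12 weeks. Fabp5, a fatty acid carrier that can also bind retinoic acid, rose at 12 weeks (0.54, SE 0.19, adjusted p = 0.039). The carriers Rbp2, Rbp3, Rbp7, Crabp1 and Crabp2 had too few counts to be tested.

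Of 13 tested retinol dehydrogenases and reductases, 3 were higher and 3 lower at each duration (beside 31.6% and 38.5% of tested genes called), with a median log2 fold change of -0.10 at 2 weeks and 0.004 at 12 weeks. Akr1b8, an aldo-keto reductase, rose from a mean of 1.73 to 10.2 CPM at 2 weeks (edgeR adjusted p = 2.7e-08) and from 1.84 to 7.22 at 12 weeks (adjusted p = 1.8e-05). Dhrs9 also rose at both durations, from 0.168 to 0.529 CPM and from 0.143 to 0.751. The short-chain enzymes Dhrs4 and Rdh14 fell at both durations, with log2 fold changes of -0.41 and -0.31 at 2 weeks and -0.37 and -0.34 at 12 weeks. Adh1, Rdh5, Rdh11 and Adh7 each passed at a single duration (Rdh5 lower and Rdh11 higher at 2 weeks, Adh1 lower and Adh7 higher at 12 weeks). The difference between the genotype effects of the durations passed for none of these 4 in edgeR (adjusted p of 0.23 to 0.7); for Adh1 it was -0.59 (SE 0.19, unadjusted p = 0.0054, adjusted p = 0.23). Of 4 relatives of the retinaldehyde dehydrogenases, 1 was higher and 2 lower at 2 weeks and 0 higher and 2 lower at 12 weeks: Aldh8a1, which oxidises 9-cis retinal, and Aldh2, the main mitochondrial enzyme, fell at both, whereas Aldh1b1 rose at 2 weeks (0.77, SE 0.27, adjusted p = 0.037).

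**Figure D5:**
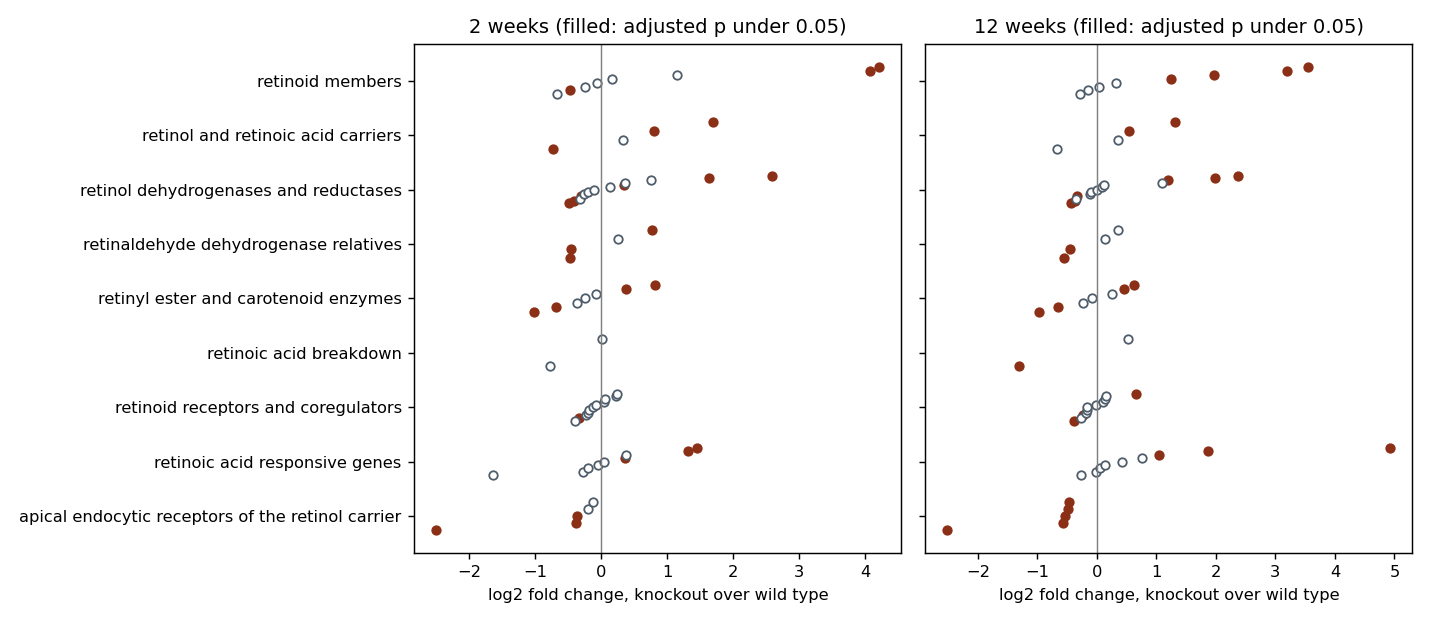
log2 fold change, knockout over wild type, of each tested gene of the 8 retinoid genes and of 8 further lists, at 2 weeks (left) and 12 weeks (right), filled where edgeR's adjusted p was under 0.05. Most genes of these lists lie within 1 of 0, and the points beyond 3 are Stra6 and Aldh1a2 at both durations and Ucp1 at 12 weeks.

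Of 7 genes of retinyl ester and carotenoid handling, 2 were higher and 2 lower at each duration. Lpl, which frees fatty acids and takes part in uptake of retinyl esters, fell to 0.484 of the wild-type mean at 2 weeks (492 against 1015 CPM, edgeR adjusted p = 0.019) and to 0.499 at 12 weeks (411 against 824, adjusted p = 4.1e-05). Bco2, which cleaves carotenoids, fell at both durations, with log2 fold changes of -0.68 (SE 0.11) and -0.65 (SE 0.12), and Scarb1, which takes up carotenoids, rose, with 0.37 (SE 0.10) and 0.62 (SE 0.09). Bco1, which makes retinal from beta-carotene, rose at 2 weeks (0.82, adjusted p = 0.025) and Lipe, a hormone-sensitive lipase, at 12 weeks (0.46, adjusted p = 0.022). Lrat, which makes retinyl ester, had -0.36 (SE 0.16, adjusted p = 0.097) and -0.24 (SE 0.22, adjusted p = 0.41). Of the 2 tested enzymes that break down retinoic acid, Cyp26b1 fell at 12 weeks, from a mean of 11.7 to 4.67 CPM with no overlap of the libraries (adjusted p = 0.0024). Cyp26a1, the other gene with a DR5 element, had 0.826 and 0.823 CPM at 2 weeks and 0.721 and 1.03 CPM at 12 weeks (adjusted p = 0.97 and 0.26).

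Of 11 tested receptors and coregulators other than Rarb, 0 were higher and 1 lower at 2 weeks, and 1 higher and 2 lower at 12 weeks. Rxra, the shared partner receptor, fell at both durations (-0.34, SE 0.09, edgeR adjusted p = 0.0078 and -0.38, SE 0.09, adjusted p = 0.0033). Rarg, another retinoic acid receptor, rose at 12 weeks (0.66, SE 0.14, adjusted p = 0.0018), and Ncor1, a corepressor, fell (-0.24, SE 0.07, adjusted p = 0.015). Of 9 tested genes known to respond to retinoic acid in some tissue, 3 were higher and 0 lower at each duration, beside 18.2% and 20.7% of tested genes higher: Tgm2, Ret and Egr1 at 2 weeks, and Foxa1, Pdk4 and Ucp1 at 12 weeks. Egr1, an early growth response gene that also follows stress, rose from 9.98 to 27 CPM at 2 weeks (adjusted p = 0.0046), and Ret, a receptor kinase gene, from 0.315 to 0.788 (adjusted p = 0.04). Pdk4, which limits glucose use, rose from 19.6 to 39.7 CPM at 12 weeks with no overlap (adjusted p = 0.00038). Ucp1, the uncoupling protein of brown fat, had 0.41 CPM in wild type and 12.1 in the knockout at 12 weeks (adjusted p = 0.031), moved with the adipocyte markers above, and had a log2 fold change of -1.50 without the libraries over 1 CPM of Adipoq.

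Of 5 receptors and helpers that return filtered RBP4 to the tubule cell, 5 were lower at 12 weeks and 3 at 2 weeks, and 0 were higher. Over all tested genes 17.7% and 13.4% were lower. The 5 include Lrp2, whose fall was set by the design. Beside Lrp2 itself, the targeted gene, Amn, the membrane anchor of cubilin, and Lrpap1, the chaperone of megalin, were lower at both durations (log2 fold changes -0.37 and -0.38 at 2 weeks and -0.57 and -0.47 at 12 weeks). Dab2, the endocytic adaptor, fell at 12 weeks (-0.54, SE 0.11, edgeR adjusted p = 0.0013). Cubn, the partner receptor of megalin, also fell (-0.49, SE 0.18, edgeR adjusted p = 0.048), near the threshold and with libraries that overlapped. Its range at 12 weeks was 173 to 344 CPM in the knockout and 265 to 551 in wild type. At 2 weeks Dab2 and Cubn had -0.12 (SE 0.12, edgeR adjusted p = 0.48) and -0.20 (SE 0.17, adjusted p = 0.43). Markers of the proximal tubule fell with them, from a summed 18092 to 24027 CPM in wild type to 9384 to 14451 in the knockout at 12 weeks, and their part in these changes was not tested.

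Several calls among the other pathway genes rested on narrow margins in edgeR. At 2 weeks the call of Aldh1b1 was lost without any of knockout replicates 1, 3, 4 and 5 or wild-type replicates 2, 3 and 5 (adjusted p of 0.057 to 0.093), and with a replicate block (0.088). That of Bco1 was lost without knockout replicate 1 or wild-type replicate 1, 2, 4 or 6 (0.051 to 0.058), and that of Lpl without knockout replicate 3 (0.052). Dhrs9 was lost without knockout replicate 2, 3, 4 or 5 or wild-type replicate 1, 3, 4 or 6 (0.053 to 0.11), and Ret without knockout replicate 2, 3 or 4 or wild-type replicate 1, 3, 5 or 6 (0.057 to 0.13). Ttr was lost with a replicate block (0.1), in the fit on 24 libraries (0.073) and without a filter (0.053). At 12 weeks Fabp5 was lost without knockout replicate 2 or wild-type replicate 2, 5 or 6 (0.075 to 0.091). Foxa1 was lost without knockout replicate 2, 4 or 5 or wild-type replicate 1, 2, 5 or 6 (0.057 to 0.11) and with a replicate block (0.075). Ucp1 was lost without knockout replicate 4 or 5 or any wild-type replicate but the first (0.057 to 0.066) and with a replicate block (0.054). The setting without the libraries over 1 CPM of Adipoq left 2 knockout libraries at 12 weeks. Among the pathway genes named by the rule, it lost the 12-week calls of 11 with their sign kept. The call of Ucp1 was lost with a change of sign (-1.50, edgeR adjusted p = 0.62). Of the 11, Rxra and Ncor1 had log2 fold changes of -0.39 and -0.25, as large as with all libraries. Cyp26b1, Rarg, Aldh2, Dhrs4, Lrpap1 and Fabp5 had -0.96, 0.48, -0.33, -0.31, -0.29 and 0.43. Lipe, Rdh14 and Foxa1 shrank to 0.12, -0.15 and 0.40 (adjusted p of 0.61, 0.36 and 0.85). At 2 weeks the same setting lost Bco1 (0.49, adjusted p = 0.27), Dhrs9 (1.37, 0.16), Ret (1.06, 0.16) and Rdh11 (0.33, 0.056).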

How the data were processed

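RNA was measured in 24 kidney libraries, 6 in each of 4 groups by genotype and weeks of diet, as the titles give them. The deposited values are raw read counts per Ensembl gene, made by the authors with fastp, STAR 2.5 and HTSeq 0.6.1 on mm10, per the submitters' processing notes; the sources used here do not give options, annotation release or strand setting. The labels name the NEBNext Ultra RNA kit for the libraries. Of 54532 identifiers, 54495 matched GENCODE M21, used for symbols, positions and exon lengths; the other 37 held at most 0.00528% of counts.

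The counts went into edgeR 4.0.16 (R 4.3.3) with TMM factors and the robust quasi-likelihood test, two-sided, with p-values adjusted by Benjamini-Hochberg over the genes tested and a threshold of 0.05. filterByExpr (minimum count 10, minimum total 15) left 17286 genes. Genotypes were compared within the 12 libraries of a duration; durations and the difference of genotype effects used all 24. The SE is the absolute log2 fold change over the square root of F. Comparisons that share a group share its libraries. CPM use the TMM-scaled library. Depth was 11.3 to 34.1 megacounts, so levels under 1 CPM rest on few reads; intervals and floors (3 counts) cover counting error only, since PCR copies are not independent molecules. Scripts were tested on simulated data. No libraries were duplicates, by a chi-square test of counts.

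The members and lists were chosen with earlier results of these data known. Named genes are the members, Lrp2, up to 4 called genes per retinoid list and genotype comparison with the smallest adjusted p, and the 3 genes most alike to each member, without predicted genes. Adh7, Rdh5, Cubn, Lrat, Cyp26a1, Anxa1, Nmrk1, Top2b, Gm42418, Adipoq and Akr1b3 are named outside this rule, after their values were seen. Some genes that the rule or the lists give are not reported here. Alternatives were DESeq2 1.42.0, other scalings, filters, a fit on all 24 libraries, a replicate block and each library left out. Replicate numbers do not pair the libraries: residuals of same-numbered libraries correlated between -0.1 and 0.17. The sources gave no protein sequences used here. SciPy 1.17.1 ran the exact tests.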

Additional observations from a re-analysis of the deposited data

Results flagged for a closer look

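In 3 of the 32 combinations of gene and group that were checked, 1 library stood apart from the other 5 by more than Dixon's 95% critical value (0.625 of the range); chance alone gives about 1 in 20. Rbp4 in wild type at 2 weeks had 2.99 CPM in replicate 4, against 1.25 in the next library. Adipoq was also highest in that library, at 6.19 CPM. Aldh1a2 in wild type at 12 weeks had 2.35 CPM in replicate 6, against 4.26 in the next lowest library. Rarb in the knockout at 2 weeks had 5.72 CPM in replicate 6, against 3.48 in the next; Aldh1a3 was also highest there, at 35.5 CPM.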

How the results depend on the processing

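The calls of Stra6 and Aldh1a2 at both durations and of Dhrs3 at 2 weeks held under every alternative run, and the count of members called at 2 weeks was 3 under each of 21. Of 335 recomputed log2 fold changes of members in the genotype comparisons, 317 kept direction and side of the threshold, 3 lost a call, 7 gained 1 and 8 changed sign; for the other named genes 893 of 962 kept both, 68 lost a call and 1 changed sign. Leaving out the 9 libraries over 1 CPM of Adipoq, added after seeing the data, leaves fewer samples and gave 2427 called genes at 12 weeks (6653 with all libraries) and 2 members (4), 2112 called genes for 12 against 2 weeks in the knockout (5840) and 1 member (2), and 3 for the difference of the genotype effects (30). That difference called 154 genes with DESeq2 and 22 to 56 with single libraries left out, the highest without replicate 3 of the 12-week knockout. Members called for 12 against 2 weeks in the knockout were 1 with a mean of at least 1 CPM, where Rbp4 was not tested, 1 without a filter, 1 with a replicate block, and 1 to 2 with single libraries left out. The replicate block changed no other count by over 1.5 times; it called 5103 genes at 2 weeks, 5950 at 12 weeks and 27 for the difference, and gave 3, 5 and 0 members.

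Values that changed sign were of genes that did not pass, except Ucp1. Without the libraries over 1 CPM of Adipoq these log2 fold changes were 0.54 (Rbp4, 2 weeks), -0.46 (Aldh1a1, 2 weeks), -0.09 (Rarb, 12 weeks), -1.50 (Ucp1, 12 weeks), -2.0, 0.10 and -0.0002 (Aldh1a3, Rdh10 and Rarb, difference of effects), -0.01 and -0.10 (Aldh1a1 and Rdh10, 12 against 2 weeks in wild type) and -0.04 (Aldh1a2, 12 against 2 weeks in the knockout). The replicate block gave -0.17 for the Aldh1a1 difference, and no filter gave -0.02 for Rdh10 in wild type. With single libraries left out the ranges were -0.11 to 0.51 (Aldh1a1, 2 weeks), -0.03 to 0.12 (Rarb, 12 weeks), -0.19 to 0.45, -0.44 to 0.73 and -0.15 to 0.002 (Aldh1a1, Aldh1a3 and Rdh10, difference) and -0.08 to 0.09 (Rdh10, wild type). The cause was not tested. Depth limits Rbp4 and wild-type Stra6, which had at most 58 and 31 counts per library.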
